A study of Nicotiana tabacum with 12 samples.

Results

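The oxygen-evolving complex of photosystem II was followed through 8 genes of tobacco, Nicotiana tabacum, out of 61526 genes in the count table. They were chosen by identifier and by the names that a reference gene table gives them. LOC107820252 (copy A) and LOC107766588 (copy B) are named PsbO, and LOC107816469 (copy A) and LOC107767928 (copy B) are named PsbQ. LOC107785785 is PSBP1, LOC107830202 is PSBP3, LOC107769475 is oee2-B and LOC107816978 is PSBR. The rule uses no measured value, although the genes were proposed with earlier results of these data known, and all 8 passed the filter on low counts.

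Leaf RNA was sequenced from 12 libraries of field-grown burley tobacco, cultivar TN90. Groups P2.4a, P3.9a and P9.10a are transgenic lines with the NtYb1 (NtEGY2) coding gene behind the 35S promoter, which is active in most plant tissues, and CK is untransformed TN90, with 3 libraries in each of the 4 groups. The lines derive from primary transformants and were sampled as green-stemmed segregants, so plants were picked by stem colour; the labels' treatment text names the P3 plant with a different number than the sample titles do. Its wording on roots after an inoculation does not match leaf samples. Top leaves were frozen before they matured, and the number of plants per library was not stated in the labels, so the p-values measure the spread between these libraries.

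Photosystem II takes electrons from water at a manganese and calcium cluster on the lumen side of the thylakoid membrane. In plants that cluster is capped by extrinsic proteins made from nuclear genes: PsbO stabilises the manganese, PsbP helps to hold calcium and chloride, and PsbQ helps to hold chloride. PsbR is a small thylakoid protein that helps PsbP and PsbQ to dock. EGY proteins are metalloproteases of the chloroplast membranes, and burley tobacco is known for its pale, chlorophyll-poor stems and leaves, a trait of the Yb1 and Yb2 loci.

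No gene of the complex passed the test between the transgenic lines and CK. In the mean of the 3 lines against CK, 0 of 8 passed an edgeR adjusted p of 0.05, against 0.0383% of the 39207 genes tested. For an unadjusted edgeR p under 0.05 the count was 0 of 8, beside 4452 of the 39207 genes. DESeq2 and limma-voom also called 0 of 8 in this comparison, beside 446 and 10 of all genes. In both tools 0 of 8 had an unadjusted p under 0.05. The 8 fitted log2 changes had a median of -0.08, against 0.00205 over all genes tested, and ran from -0.21 in PSBR to 0.03 in PSBP3. Their 95% confidence intervals lay between -0.51 and 0.34 on the log2 scale, so a fall of more than 1.42-fold or a rise of more than 1.26-fold lay outside the interval of every one of the 8. Leaving out CK replicate 1 moved the median of the 8 to -0.15, and leaving out CK replicate 3 moved it to -0.02.

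Totals ran from 13536964 to 16788583 counts in the transgenic libraries and from 16657112 to 18444571 in CK. The 8 genes together held 0.677% to 0.889% of a library's counts in the transgenic lines and 0.729% to 0.857% in CK. P3.9a replicate 1 stood apart from the other libraries, at 77.4 on a first principal component that held 26.3% of the variance, where the other 11 lay between -40.3 and 26.5. CK replicate 3 lay at 62.8 on the second component, with the others between -32.3 and 22.2. The 5 leaf mesophyll markers found (a pair of Rca genes, CAB21, GAPA and GAPB) summed to 9092 to 12997 CPM (counts scaled to library size) in the transgenic libraries and 10263 to 11568 in CK, while the root marker TobRB7 lay between 0.498 and 1.91 CPM in the transgenic libraries and between 0.720 and 1.14 in CK. In bulk leaf RNA, fewer cells of a type and less RNA per cell cannot be told apart.

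PsbO is the main stabiliser of the manganese cluster. PsbO copy A had 911, 752 and 939 counts scaled to library size (CPM, with TMM factors) in P2.4a, 896, 931 and 706 in P3.9a, and 756, 986 and 1089 in P9.10a, against 838, 935 and 1041 in CK. Each line overlapped CK: of the 9 transgenic libraries, 3 lay below all CK libraries and 1 above. PsbO copy A averaged 885 ± 124 CPM in the transgenic libraries (SD, n = 9) and 938 ± 102 in CK (SD, n = 3), a fitted log2 change of -0.09 (SE 0.14, 95% interval -0.39 to 0.22, edgeR adjusted p = 0.859). The value of PsbO copy A was -0.16 without CK replicate 1 and -0.00371 without CK replicate 3.

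PsbO copy B had 1055, 837 and 1037 CPM in P2.4a, 999, 1057 and 825 in P3.9a, and 852, 1109.9 and 1219 in P9.10a, against 949, 1063 and 1129 in CK. The same libraries as for copy A were at the bottom of each line, and the groups overlapped. The fitted log2 change of PsbO copy B was -0.07 (SE 0.14, interval -0.36 to 0.22, edgeR adjusted p = 0.888), a direction that turned to 0.00424 when library totals alone were used for scaling. It was -0.14 without CK replicate 1 and -0.01 without CK replicate 3.

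PsbQ sits beside PsbP on the lumen face. PsbQ copy A had 956, 801 and 951 CPM in P2.4a, 878, 945 and 772 in P3.9a, and 758, 1016 and 1134 in P9.10a, against 915, 987 and 1127 in CK. P9.10a held both the lowest and the highest of the 12 libraries. PsbQ copy A stood at a fitted log2 change of -0.15 (SE 0.14, interval -0.44 to 0.14, edgeR adjusted p = 0.727), with 4 of 9 transgenic libraries below all CK libraries and 1 above. Without the TMM factors 3 of 9 lay below all CK libraries. The fitted change was -0.21 without CK replicate 1 and -0.06 without CK replicate 3.

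PsbQ copy B had 1065, 879 and 1062 CPM in P2.4a, 1007, 1009 and 836 in P3.9a, and 817, 1137 and 1248 in P9.10a, against 968, 1091 and 1256 in CK. The highest library of this copy was CK replicate 3, just above P9.10a replicate 3, and every line overlapped CK. Without the TMM factors P9.10a replicate 3 lay above CK replicate 3 (1197 against 1166 CPM). The fitted log2 change of PsbQ copy B was -0.14 (SE 0.14, interval -0.44 to 0.17, edgeR adjusted p = 0.766), which was -0.22 without CK replicate 1 and -0.03 without CK replicate 3.

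**Figure D1:**
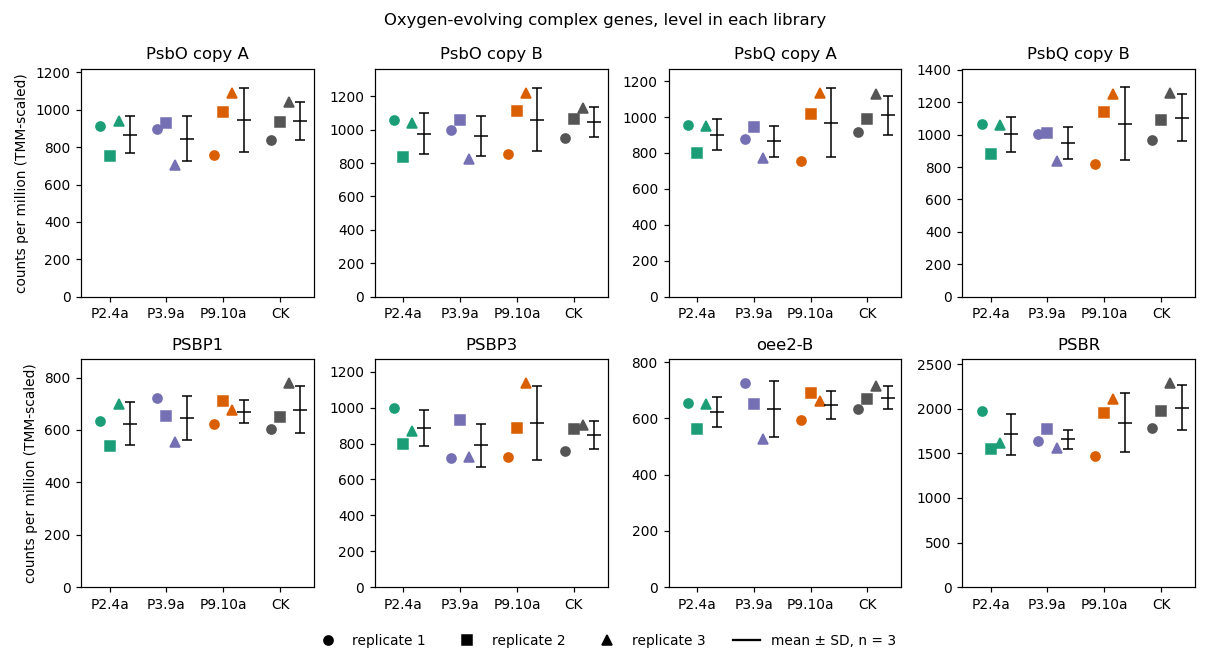
Level of the 8 genes in CPM (vertical axis, from 0) in each library of P2.4a, P3.9a, P9.10a and CK, with marker shape for the replicate number and the mean ± SD of 3 libraries beside the points. The lines overlap CK in all panels except P3.9a in PSBR, where its libraries lie between 1559 and 1774 and those of CK between 1786 and 2284.

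PsbP is encoded by several genes in tobacco, of which PSBP1, PSBP3 and oee2-B were followed. PSBP1 had 633, 537 and 700.2 CPM in P2.4a, 722, 655 and 555 in P3.9a, and 621, 709 and 677 in P9.10a, against 603, 651 and 778 in CK. P3.9a replicate 1, which with the TMM factors was not the highest of its line for PsbO or PsbQ, was the highest transgenic library here. The fitted log2 change of PSBP1 was -0.07 (SE 0.13, interval -0.34 to 0.20, edgeR adjusted p = 0.878), and it turned to 0.00923 with library totals alone and to 0.04 without CK replicate 3.

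The gene oee2-B had 655, 562 and 652 CPM in P2.4a, 725, 652 and 527 in P3.9a, and 593, 690.3 and 661 in P9.10a, against 634, 669 and 715 in CK. As for PSBP1, P3.9a replicate 1 led the transgenic libraries; it was the highest and P3.9a replicate 3 the lowest of the 12. The fitted log2 change of oee2-B was -0.08 (SE 0.12, interval -0.34 to 0.18, edgeR adjusted p = 0.839), which was -0.12 without CK replicate 1 and -0.04 without CK replicate 3.

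PSBP3 had 998, 800.1 and 868 CPM in P2.4a, 721, 929.97 and 723 in P3.9a, and 725, 887 and 1135 in P9.10a, against 759, 881 and 906 in CK. Here P3.9a replicate 1 was the lowest of the 12 libraries, and 3 transgenic libraries lay below all CK libraries and 3 above. Without the TMM factors 0 of the 9 transgenic libraries lay below all CK libraries, and CK replicate 1 was the lowest (742 CPM). PSBP3 was the 1 gene of the 8 with a fitted value above 0 (3 of the 8 with library totals alone), at 0.03 (SE 0.15, interval -0.29 to 0.34, edgeR adjusted p = 0.966), and the value fell below 0 without P2.4a replicate 1, P3.9a replicate 2, P9.10a replicate 3 or CK replicate 1.

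PSBR had 1973, 1546 and 1615 CPM in P2.4a, 1639.98, 1774 and 1559 in P3.9a, and 1471, 1953 and 2108 in P9.10a, against 1786, 1970.5 and 2284 in CK. Of the 9 transgenic libraries, 6 lay below all CK libraries and 0 above, and 8 lay below the CK mean. Without the TMM factors 4 of the 9 lay below all CK libraries. PSBR averaged 1738 ± 225 CPM in the transgenic libraries (SD, n = 9) and 2013 ± 252 in CK (SD, n = 3). The fitted log2 change was -0.21 (SE 0.14, interval -0.51 to 0.08), and it did not pass (unadjusted p = 0.139, edgeR adjusted p = 0.600). PSBR thus had the lowest p of the 8, and its value was -0.11 without CK replicate 3 and -0.29 without CK replicate 1.

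Each line was also set against CK on its own, with the same 3 CK libraries in each comparison. P2.4a had 0 of 8 genes called (0.00765% of all genes tested), with fitted log2 values from -0.23 in PSBR to 0.07 in PSBP3 and a median of -0.12, against -0.00144 over all genes. P3.9a had 0 of 8 called (0.0357%), with values from -0.28 in PSBR to -0.07 in PSBP1 and a median of -0.14, against 0.00807 over all genes. P9.10a had 0 of 8 called (0.0128%), with values from -0.13 in PSBR to 0.11 in PSBP3 and a median of -0.03, against 0.00274 over all genes. In each of the 3 comparisons 0 of 8 had an unadjusted edgeR p under 0.05, beside 4052 (P2.4a), 3361 (P3.9a) and 2810 (P9.10a) of the 39207 genes. DESeq2 called 0 of 8 in each, beside 129, 238 and 150 of all genes in the same order. Limma-voom called 0 of 8 in each, beside 1, 6 and 4 of all genes.

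With all 12 libraries PSBR had the lowest value in each line, at -0.23 in P2.4a (SE 0.17, edgeR adjusted p = 0.648), -0.28 in P3.9a (SE 0.17, edgeR adjusted p = 0.695) and -0.13 in P9.10a (SE 0.17, edgeR adjusted p = 0.932). These 3 values share their CK libraries. With 1 library left out, PSBR ranged from -0.35 to -0.13 in P2.4a, where PSBP1 and PsbQ copy A lay lower without P2.4a replicate 3, from -0.36 to -0.18 in P3.9a, and from -0.23 to 0.02 in P9.10a, where it turned above 0 without P9.10a replicate 1. In P3.9a all 3 libraries of PSBR lay below all 3 of CK, which was so for 6.61% of all genes tested in that comparison. None of the other genes of the complex lay wholly below CK in P3.9a, and 0 of 8 did so in P2.4a (9.99% of all genes), in P9.10a (7.71%) or over all 9 transgenic libraries (1.73%). Without the TMM factors 1 of the 3 P3.9a libraries lay below all CK libraries. The scaling factor of the P3.9a libraries ran from 1.00 to 1.07 and that of CK from 0.929 to 0.979.

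**Figure D2:**
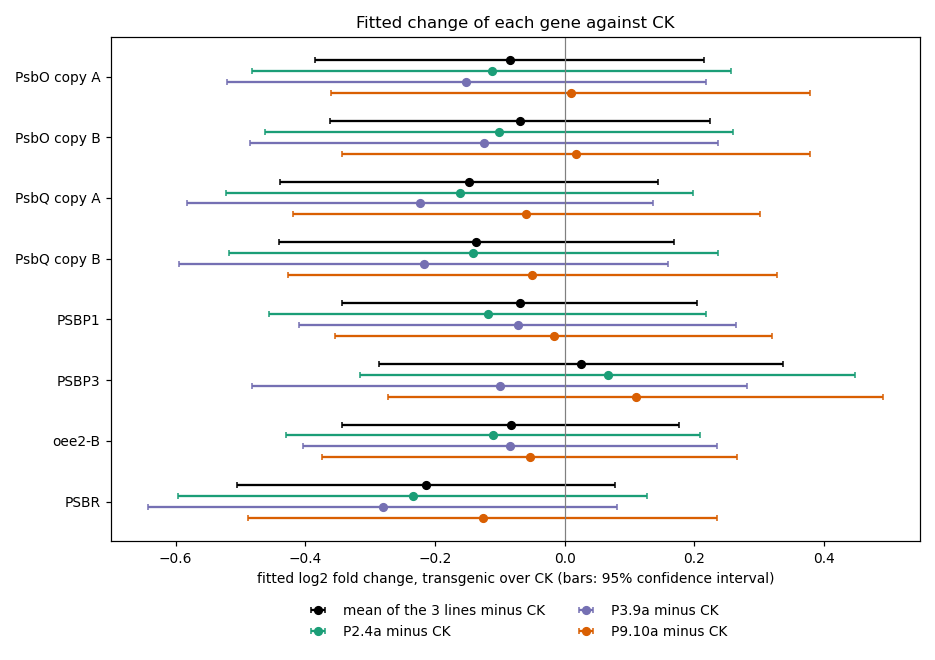
Fitted log2 fold change against CK (horizontal axis) of the 8 genes, for the mean of the 3 lines and for each line, with 95% confidence intervals from the edgeR fit. All 32 intervals include 0, and PSBR lies farthest to the left in each line.

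No gene of the complex passed a test of difference among the lines. The F test among P2.4a, P3.9a and P9.10a called 0 of 8 (0.00765% of all genes tested). All 8 had the same edgeR adjusted p in it, 0.99997. For the same comparison DESeq2, by a likelihood ratio test, called 0 of 8, beside 45 of all genes. Limma-voom, by an F test, called 0 of 8, beside 2 of all genes. Of the 24 pairwise differences between lines, the one with the smallest p was PSBP3 in P3.9a against P9.10a, at -0.21 (SE 0.18, interval -0.59 to 0.17, edgeR adjusted p = 0.999). The intervals of the 24 differences lay between -0.59 and 0.55 on the log2 scale.

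In the order of group means, P9.10a came first among the lines for all 8 genes. It lay ahead of CK for PsbO copies A and B (944 ± 171 and 1060.1 ± 188 CPM, SD, n = 3) and for PSBP3 (916 ± 206). CK came first for PsbQ copies A and B, PSBP1, oee2-B and PSBR, with P9.10a next. P3.9a was last for the PsbO and PsbQ copies, PSBP3 and PSBR, and P2.4a was last for PSBP1 (623 ± 81.9) and oee2-B (623 ± 53.0). None of the 24 steps between neighbours in these orders was larger than the larger SD of the groups on either side. Levels of different genes are not compared with each other here, because transcript lengths were not used.

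The copies of PsbO kept a nearly fixed ratio. Reads of copy A over copy B stood at 0.864, 0.899 and 0.906 in P2.4a, 0.896, 0.880 and 0.856 in P3.9a, and 0.888, 0.889 and 0.894 in P9.10a, against 0.883, 0.879 and 0.922 in CK. The transgenic libraries lay inside or just under the range of CK. The log2 ratio differed by -0.01 between the transgenic libraries and CK (two-sided exact permutation test over 220 arrangements, p = 0.486, adjusted over 5 ratios p = 0.682). For all 5 ratios this test takes the 9 transgenic libraries as separate units, although they come from 3 lines. Its p-values leave out the grouping by line.

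The copies of PsbQ did the same. Reads of PsbQ copy A over copy B ran from 0.872 to 0.937 in the transgenic libraries and from 0.897 to 0.946 in CK, a log2 difference of -0.01 (exact permutation p = 0.559, adjusted p = 0.682). Over all 12 libraries the log2 ratio had an SD of 0.0289 for PsbO and 0.0330 for PsbQ, where counting error alone gives 0.0167 and 0.0165. How reads shared by near-identical copies were counted is not stated in the labels, so the division between copies is uncertain.

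The PsbP genes divided otherwise. Reads of PSBP1 over oee2-B ran from 0.956 to 1.07 in the transgenic libraries and from 0.951 to 1.09 in CK, with a log2 difference of 0.02 (exact permutation p = 0.682, adjusted p = 0.682). PSBP3 over oee2-B stood at 1.52, 1.42 and 1.33 in P2.4a, 0.996, 1.43 and 1.37 in P3.9a, and 1.22, 1.28 and 1.72 in P9.10a, against 1.1975, 1.32 and 1.27 in CK. Of the 9 transgenic libraries, 6 lay above all CK libraries and 1 below, and the log2 difference of 0.10 did not pass (exact permutation p = 0.432, adjusted p = 0.682). PSBP1 over PSBP3 ran from 0.597 to 1.00 in the transgenic libraries and from 0.739 to 0.859 in CK (log2 difference -0.08, exact permutation p = 0.582, adjusted p = 0.682).

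**Figure D3:**
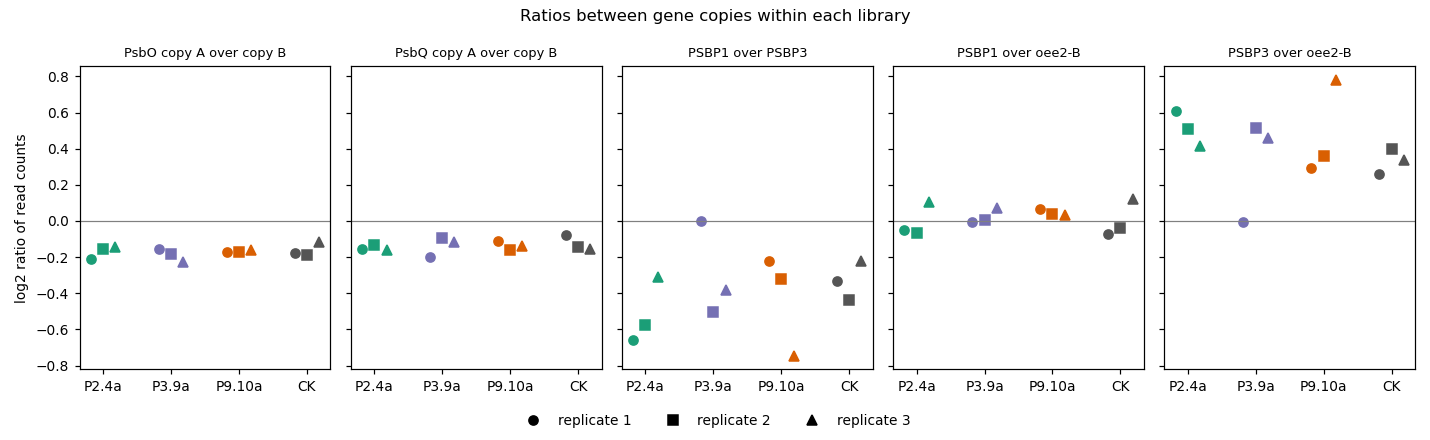
Log2 ratio of read counts (vertical axis) between copies of PsbO, copies of PsbQ and the PsbP genes within each library of P2.4a, P3.9a, P9.10a and CK, with marker shape for the replicate number. The PsbO and PsbQ ratios form flat bands, while the ratios that involve PSBP3 spread more widely. Over the 9 transgenic libraries PSBP3 over oee2-B (not log) runs from 0.996 in P3.9a replicate 1 to 1.72 in P9.10a replicate 3. The 3 CK libraries run from 1.1975 to 1.32, and a range over fewer libraries tends to be narrower.

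In P2.4a all 3 libraries had a higher PSBP3 to oee2-B ratio than any CK library, in 1 of the 5 ratios and 1 of the 3 lines. The lowest of them had a log2 ratio of 0.412 (replicate 3), against 0.397 in the highest of CK (replicate 2). Counting error alone gives an SD of 0.0190 for this log2 ratio, so counting error can produce such a separation. A comparison of 3 libraries against 3 cannot go below p = 0.10 in an exact permutation test. In P3.9a and P9.10a the spread within the line was larger than any difference from CK, with SDs of 0.28 and 0.26 in log2 ratio, against 0.0688 in CK.

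Another PsbP gene, LOC107810044, carries the names OEE2, OEE2-B, PSBP and PSBP2 and was not among the 8. The reference table thus gives a form of the name oee2-B to this gene and to LOC107769475, and the genes are told apart here by identifier. PSBP2 had 923, 769 and 763 CPM in P2.4a, 602, 834 and 646 in P3.9a, and 676, 769.9 and 849.7 in P9.10a, against 697, 833 and 756 in CK. Its fitted log2 change was -0.01 (SE 0.13, edgeR adjusted p = 0.988). The libraries of PSBP2 followed PSBP3: with the TMM factors P3.9a replicate 1 was the lowest for both. Over the 12 libraries, which share their scaling, log2 CPM of PSBP2 had a Pearson r of 0.872 with PSBP3, 0.0776 with PSBP1 and 0.199 with oee2-B, given as a description.

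PSBP3 and PSBP2 together held 59.9%, 58.8% and 54.7% of the reads of the 4 PsbP genes in P2.4a, 47.8%, 57.4% and 55.9% in P3.9a, and 53.6%, 54.2% and 59.7% in P9.10a, against 54.1%, 56.5% and 52.7% in CK. This grouping was made after the values were seen. The mean share was 55.8% ± 3.82 in the transgenic libraries (SD, n = 9) and 54.4% ± 1.93 in CK (SD, n = 3). P3.9a replicate 1 was the 1 library in which PSBP1 and oee2-B held the larger part.

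In 8 of the 12 libraries the 8 genes lay together on 1 side of their means. All 8 lay below their own 12-library mean in P2.4a replicate 2, P3.9a replicate 3, P9.10a replicate 1 and CK replicate 1, and all 8 lay above it in P9.10a replicates 2 and 3 and CK replicates 2 and 3. The mean deviation of 21 other chloroplast genes, from lists described below, lay on the same side in these libraries. In the same order it was -0.07, -0.15, -0.21 and -0.06, then 0.07, 0.29, 0.09 and 0.12. In P2.4a replicate 3 it was -0.04, where the 8 genes averaged 0.03. The mean deviation of the 8 in log2 CPM was 0.07, -0.21 and 0.03 in P2.4a, -0.02, 0.04 and -0.27 in P3.9a, and -0.22, 0.12 and 0.24 in P9.10a, against -0.07, 0.07 and 0.23 in CK. Each group thus held libraries on both sides of 0, and the groups overlapped. The pooled SD within groups was 0.15 to 0.22 in log2 CPM for the 8 genes, against a median of 0.21 for the 391 genes with a mean log2 CPM of 8 or more.

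The scaling factors ran the other way in several of these libraries. They were 0.960 in P9.10a replicate 3 and 0.929 in CK replicate 3, where the 8 genes were highest, and 1.04 in P3.9a replicate 3 and 1.06 in P9.10a replicate 1, where they were low. The part of the scaling in these deviations was not tested. The share of all reads held by the 8 genes, which uses no scaling factor, was 0.889% in P9.10a replicate 3, 0.677% in P3.9a replicate 3 and 0.696% in P9.10a replicate 1, against 0.857% in CK replicate 3.

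In the other 4 libraries the genes lay on both sides of their means, with 7 of 8 above in P2.4a replicates 1 and 3, 6 in P3.9a replicate 2 and 3 in P3.9a replicate 1. In P3.9a replicate 1 PSBP1 and oee2-B lay 0.15 and 0.17 above their own means, PsbO copies A and B at 0.00708 and -0.00686, PsbQ copies A and B at -0.08 and -0.02, PSBR at -0.13 and PSBP3 at -0.24. The 21 other chloroplast genes of the lists described next, which include PSBP2, averaged -0.34 in this library, their lowest of the 12. The mean of the 8 was -0.02 here, with PSBP1 and oee2-B above their means and PSBP3, PSBR and the PsbQ copies below. PSBP2 was also at its lowest of the 12 libraries (602 CPM). This comparison rests on 1 library, which stood apart on the first principal component.

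**Figure D4:**
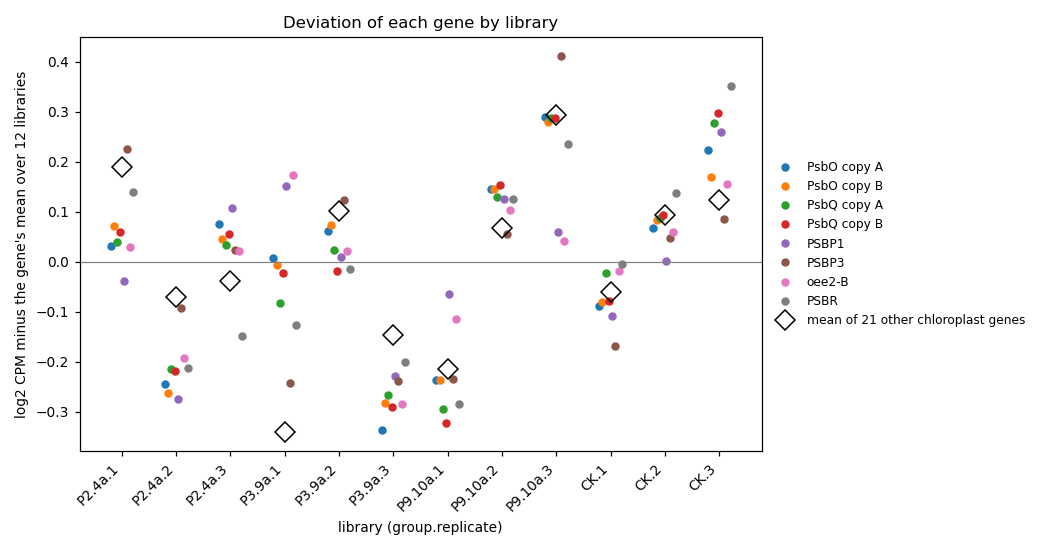
Log2 CPM of each of the 8 genes minus its mean over the 12 libraries (vertical axis), by library, with open diamonds for the mean of 21 other chloroplast genes. The genes lie close together in most libraries, and in P3.9a replicate 1 they spread from -0.24 (PSBP3) to 0.17 (oee2-B) while the diamond lies at -0.34.

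Pairs of genes differed in how tightly they moved. Of the 28 pairs, the PsbO copies had the smallest SD of the log2 count ratio over the 12 libraries and the PsbQ copies the next (0.0330). PsbO against PsbQ came next, between 0.0476 and 0.0566. PSBP1 against oee2-B stood at 0.0659, and PSBR came closest to PsbQ copy A, at 0.0751. PSBP1 against PSBP3 had the largest SD (0.21) and PSBP3 against oee2-B the next (0.19). Counting error was 0.0143 to 0.0202 for all pairs.

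**Figure D5:**
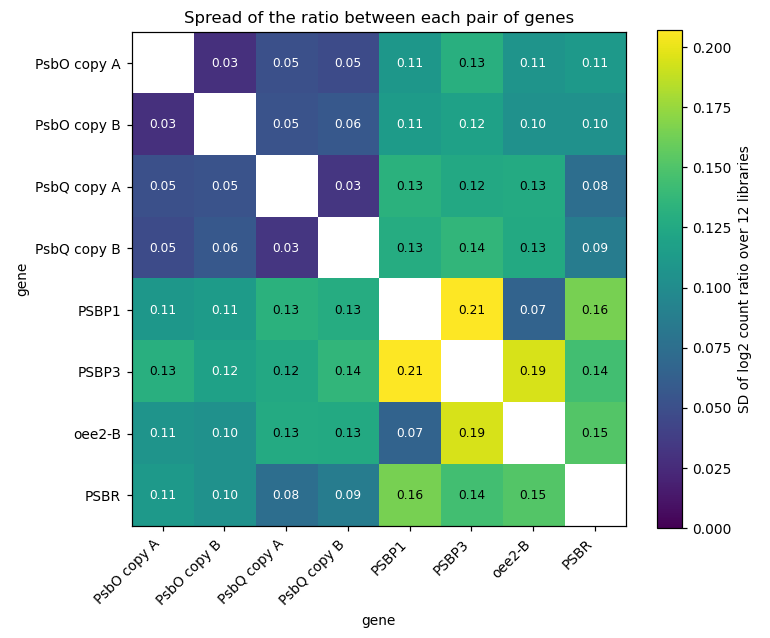
Standard deviation of the log2 read count ratio over the 12 libraries for each pair of the 8 genes, by colour and printed value. The 4 PsbO and PsbQ genes form 1 tight block of values of 0.06 and less, PSBP1 pairs with oee2-B (0.07), and PSBP3 is farthest from PSBP1 (0.21).

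Other nuclear genes of the chloroplast were taken from lists of symbols. The lists held 21 tested genes outside the 8, and PSBP2 was among them. Of the 21, edgeR called 0 in the mean of the 3 lines against CK (0.0383% of all genes) and 0 in each line. Their median log2 change was -0.06 in the mean of the 3 lines, with 15 below 0 and 6 above. Of the 8 genes of the complex 7 were below 0 and 1 above, beside 49.7% of all genes below 0. These genes share the same 3 CK libraries and several move together across libraries (Pearson r of 0.99 between the PsbO copies). Their signs are therefore not separate observations. Without CK replicate 3, 6 of the 8 were below 0. With library totals alone 5 of the 8 were below 0, with a median of -0.00875. The median over all genes was then 0.0771, so 0 was no longer the middle of all genes. A gene whose symbol starts with the letters of photosystem I subunits (PAA1, PRCI, PSA1) carries names of a proteasome subunit and was left out.

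Around photosystem II, psbS, a gene of non-photochemical quenching, averaged 1763 ± 253 CPM in the transgenic libraries (SD, n = 9). In CK psbS averaged 2191 ± 295 CPM (SD, n = 3), at a log2 change of -0.32 (SE 0.14, edgeR adjusted p = 0.425). Of the 9 transgenic libraries, 6 had a lower psbS level than every CK library. It was the 1 gene of the 21 with an unadjusted edgeR p under 0.05 in this comparison (0.0437), beside 4452 of all 39207 genes tested. VDE, the violaxanthin de-epoxidase of the same quenching, stood at -0.15 (SE 0.11), and 5 of the 6 antenna and quenching genes were below 0. In electron transport and ATP synthase, petC1, an iron-sulfur protein of cytochrome b6f, stood at -0.23 (SE 0.14) and FNR, a ferredoxin-NADP reductase, at 0.16 (SE 0.11), with a median of -0.14 over 5 genes.

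In the Calvin cycle list the Rca gene LOC107819807, a rubisco activase, stood at -0.20 (SE 0.17) and GAPA, a glyceraldehyde-phosphate dehydrogenase, at -0.10 (SE 0.16), with a median of -0.08 over 4 genes. In chlorophyll synthesis GSA, the glutamate-semialdehyde aminotransferase, stood at 0.14 (SE 0.13) and CHLG, the chlorophyll synthase, at 0.06 (SE 0.12), with a median of 0.06 over 4 genes. The 1 chloroplast protease found, cnd41, stood at -0.08 (SE 0.12). None of these genes passed in edgeR, DESeq2 or limma-voom.

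Among 33440 genes with a mean log2 CPM of 1 or more, the genes most like the mean profile of the 8 had no symbol in the reference table. Over the 12 libraries, LOC107823557 had the highest Pearson r (0.964), followed by LOC107811505 (0.958), LOC107778473, LOC107813817 and LOC107826018 (0.955, 0.955 and 0.954). The highest with a symbol were CDPK14 (0.94), a calcium-dependent protein kinase by its name, Rca (LOC107798594, 0.917) and petC1 (0.898). They were picked as the highest of many and share libraries and scaling with the 8, so the values are a description.

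With each library taken as its deviation from its group mean, LOC107763650 came first (0.983), then LOC107777466, LOC107811505, LOC107778010 and LOC107822378 (0.973 to 0.976). CDPK14 (0.939) and Rca (LOC107798594, 0.932) were again the highest with a symbol, followed by CrtR-b1 (0.916), a carotene hydroxylase. LOC107811505 was thus among the first 5 by either measure. Of the light-harvesting genes, Lhcb5 (0.889) and Lhcb6 (0.878) were closest over the 12 libraries and CAB21 (0.457) the least close among those with an Lhcb or CAB name.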

How the data were processed

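For 12 leaf libraries the authors deposited raw read counts by gene, as whole numbers. HISAT2 2.1.0, SAMtools and bedtools 2.25.0 are named in the submitters' processing notes, and a directional library kit was used on total RNA, per the labels' protocols. The build, annotation, counting rule and strand setting were not found in the labels; for that reason coordinates are left out, and reads shared by near-identical copies are uncertain. Names came from a reference table of assembly ASM71507v2; 49014 of 61526 identifiers matched and 1081 had a symbol. No protein or promoter sequences were used here, so the planned sequence description and levels per coding length were not made.

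Counts were fitted with edgeR 4.0.16 in R 4.3.3 (TMM, filterByExpr with a minimum count of 10, robust quasi-likelihood, 12 libraries, 8 residual degrees of freedom), with Benjamini-Hochberg adjustment over 39207 genes at 0.05. SE is the log2 change divided by the square root of its F value. The common biological coefficient of variation was 16.4%. Copy ratios used raw counts and exact permutation tests. Intervals carry 95% confidence. DESeq2 1.42.0 and limma 3.58.1 were alternatives, as were other scaling, no filter, a replicate block, library totals alone (added after seeing the data), 6-library fits and leaving out each library. Chi-square per degree of freedom between any 2 libraries was at least 5.09, so each counted once. The members, lists and rules were chosen with earlier results of these data known. Named genes are the 8, PSBP2, the 2 list members with the smallest p, and the genes most like the mean profile by Pearson r; the genes singled out beyond these were chosen after their values were seen.

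The fixed cell type markers gave these sums, in unscaled CPM: trichome (1 gene found) 58.8 to 136 in the transgenic libraries and 60.2 to 67.4 in CK; flower (3 genes) 30.6 to 70.5 (transgenic) and 47.8 to 51.0 (CK); vascular (3 genes) 203 to 253 (transgenic) and 163 to 215 (CK); dividing cells (9 genes) 621 to 1842 (transgenic) and 925 to 1201 (CK); senescence (3 genes, 2 at 0 in all libraries) 9.49 to 19.8 (transgenic) and 15.4 to 20.5 (CK). Their part in the results was not tested.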

Additional observations from a re-analysis of the deposited data

How the results depend on the processing

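No gene of the 8 and none of the 21 other chloroplast genes was called in any comparison under any of the alternatives run (RLE or upper-quartile factors, library totals alone, no low-count filter, no robust estimation, a replicate block, DESeq2, limma-voom, the 6 libraries of a line and CK, and each library left out). Scaling by library totals alone was chosen after seeing the data. It turned the sign of 8 of the fitted values: PsbO copy B (0.00424) and PSBP1 (0.00923) in the mean of the 3 lines, PSBP1 (0.0408), PSBP3 (0.00565) and oee2-B (0.0267) in P3.9a, and PsbQ copy B (0.00329), PSBP1 (0.0437) and oee2-B (0.00418) in P9.10a. It moved the median of all genes from 0.00205 to 0.0771 in the mean of the 3 lines, and 0 of 8 passed.

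With 1 library left out, the log2 change ranged from -0.147 to 0.0413 for PSBP1 and from -0.0492 to 0.0796 for PSBP3 in the mean of the 3 lines, from -0.0253 to 0.136 for PSBP3 in P2.4a, and from -0.156 to 0.0384 for PSBP1 and -0.184 to 0.0377 for oee2-B in P3.9a. In P9.10a it ranged from -0.106 to 0.156 for PsbO copy A, -0.0945 to 0.163 for PsbO copy B, -0.187 to 0.0998 for PsbQ copy A, -0.177 to 0.12 for PsbQ copy B, -0.0947 to 0.0936 for PSBP1, -0.0746 to 0.262 for PSBP3, -0.102 to 0.0154 for oee2-B and -0.234 to 0.0219 for PSBR; the low ends were mostly without P9.10a replicate 3 and the high ends mostly without P9.10a replicate 1. The log2 copy ratio, transgenic minus CK, ranged from -0.027 to 0.00764 for PsbO, -0.0282 to 0.0101 for PsbQ, -0.0176 to 0.0791 for PSBP1 over oee2-B, -0.137 (without CK replicate 2) to -0.0284 (without CK replicate 3) for PSBP1 over PSBP3 and 0.0606 (without P9.10a replicate 3) to 0.159 (without P3.9a replicate 1) for PSBP3 over oee2-B. Against CK alone, PSBP1 over oee2-B was -0.00648 in P2.4a, and in P3.9a PSBP1 over PSBP3 was 0.034 and PSBP3 over oee2-B -0.0114, where 3 against 3 cannot pass.

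The count over all genes, 15 in the mean of the 3 lines, 3 for P2.4a, 14 for P3.9a, 5 for P9.10a and 3 among lines, moved with the settings. In DESeq2 the mean gave 446, P2.4a 129, P3.9a 238, P9.10a 150 and the test among lines 45. Without a filter it was 82 in the mean of the 3 lines, 33 in P3.9a and 9 in P9.10a, and without robust estimation 25 in the mean. With library totals alone it was 6 in the mean and 22 in P3.9a, and with limma-voom 1 in P2.4a and 6 in P3.9a. The 6-library fits gave 238 for P2.4a, 3 for P3.9a and 16 for P9.10a. Leaving out 1 library gave 6 to 740 in the mean, 0 to 56 for P2.4a, 5 to 105 for P3.9a, 1 to 12 for P9.10a and 2 to 6 among lines. The highest of these came without P3.9a replicate 1, except among lines (without P3.9a replicate 3), and the lowest without CK replicate 1 in the mean and P2.4a, P3.9a replicate 2 in P3.9a and P9.10a replicate 3 in P9.10a. The cause was not tested.

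With the replicate number as a block, 4 genes were called in the mean of the 3 lines and 4 in P3.9a, and 0 of the 8 in any comparison. The labels do not say that a number marks a shared plot or day. Same-numbered libraries of different groups had correlations of their deviations from -0.309 to 0.265, with 4 of 18 over 0.1. Of the 12 libraries, 3 were closest to their own number. With 3 libraries per group these correlations cannot decide whether a number marks a shared plot or day.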
